A study of Ovis aries with 16 samples.

Results

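The 200 genes described here varied least in read share among all amnion libraries of the series, out of 6031 eligible gene IDs and 25197 IDs in the count table. They were chosen by their measured values. A gene ID was eligible when it had at least 10 CPM (the count divided by the library total and scaled to 1000000 reads) in each of 16 libraries and a mean CPM under 1000 in the control group. The numbered block of the first 37 IDs was left out. Of the rest, the 200 with the smallest standard deviation (SD) of log2(CPM+1) over the 16 libraries were taken. Their steadiness and their level are therefore a description of the choice and not a finding, and the same holds, as a limit, for how far they could differ between groups.

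The study altered the flow of fluid across the amnion of fetal sheep for 2 days and measured transcripts of the membrane. The 16 pregnant ewes, each with a singleton fetus, were fitted with vascular, amniotic and fetal bladder catheters at 121 ± 0.5 days of gestation (SE), where term is 145 to 150 days, so surgery and catheters were common to all groups. The groups of 4 animals were control (C), urine drainage without fluid replacement (UD), urine drainage with isovolumic replacement by lactated Ringer's solution (UDR), and continuous intra-amniotic infusion of that solution at 2 liters per day (IA). The 16 libraries held 12245460 to 30767263 counts each.

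The amnion is the thin inner membrane of the fetal sac, an epithelium on a layer of connective tissue without blood vessels of its own. Amniotic fluid and its solutes cross it towards fetal blood, in part inside vesicles. Genes whose transcripts hold a nearly constant level serve as internal references when transcripts are compared between samples, and they are often genes of functions that every cell needs, such as protein synthesis, splicing or protein breakdown. Whether a gene is steady has to be measured in each tissue and experiment. Scaling methods for RNA sequencing rest on the same idea, since they assume that a large share of genes does not change.

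No symbol could be given to these genes, because 0 of the 25197 IDs were found among the 35057 genes of the RefSeq annotation of ARS-UI_Ramb_v3.0. The members are named by Ensembl sheep gene ID, their roles are not stated, and the labelled tissue was not checked against marker genes. CPM values are not corrected for transcript length, so they compare a gene between libraries and not 1 gene with another. In whole tissue, fewer cells of a type and less RNA per cell cannot be told apart.

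The SD of log2(CPM+1) ran from 0.11 to 0.21 among the 200 genes, with a median of 0.19. Over all 6031 eligible IDs the median was 0.41 and the highest value 2.24. In the median steady gene the highest of the 16 libraries was 1.59 times the lowest, and in the least even one it was 1.99 times. Highest and lowest lay within 2-fold of each other in 200 of 200 members, against 705 of the 5831 eligible IDs that were not taken (12.1%). The edge of the set was not a gap: the member ranked last, ENSOARG00000006309, had an SD of 0.20629, and the ID just outside, ENSOARG00000017258, had 0.20642.

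Steady genes were found at low, middle and high read shares. Their mean CPM ran from 13.5 to 812.3, with a median of 56.7, while all eligible IDs ran from 12.8 to 1829 with a median of 57.6. The set took 3.28% of the eligible IDs with a mean of 10 to 30 CPM, 3.50% of those from 30 to 100 CPM, 3.18% from 100 to 300 CPM and 2.28% above that. In numbers these were 37, 113, 42 and 8 genes.

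Most of the small spread that remained was larger than counting error. The smallest count of a member in any library was 156, and the median of the smallest counts was 697. Counting alone would give a median SD of 0.048 in log2, or 7.16% of the members' variance. That share was 18.2% among members with 10 to 30 CPM and 0.696% among those above 300 CPM. Repeat sequencing of UDR 2 and of UDR 3 in another lane measured that error directly. Between the 2 runs of UDR 2 the log2 ratios of the 200 genes had an SD of 0.076, where counting predicts 0.078, and between those of UDR 3 an SD of 0.090, where counting predicts 0.084. The largest difference between runs was 1.24-fold for UDR 2 and 1.30-fold for UDR 3.

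**Figure D1:**
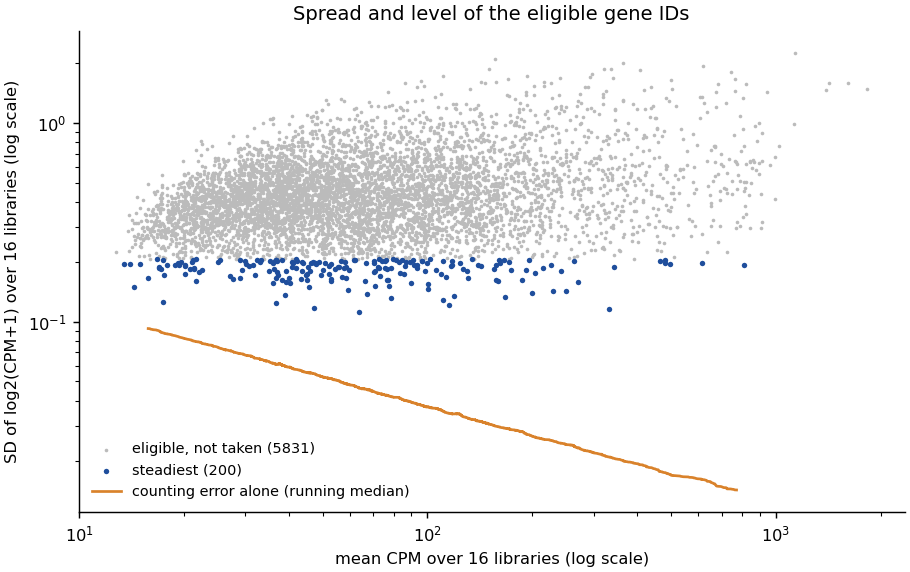
Each point is 1 of the 6031 eligible gene IDs, with its mean CPM on the x axis and its SD of log2(CPM+1) over 16 libraries on the y axis, both on log scales; blue points are the 200 steadiest and the orange line is the spread that counting error alone gives. The steady genes span mean CPM of 13.5 to 812.3 and lie along the lower edge of the cloud, above the counting line.

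ENSOARG00000015640 was the steadiest gene, with an SD of 0.11. It was at 62.3, 63.4, 62.4 and 76.1 CPM in C 1 to C 4 and at 64.0, 65.9, 65.5 and 58.9 CPM in UD 1 to UD 4. In UDR 1 to UDR 4 it was at 61.4, 60.2, 62.6 and 68.5 CPM, and in IA 1 to IA 4 at 66.6, 54.4, 57.8 and 68.5 CPM. All 4 groups overlapped, C 4 was the highest library and IA 2 the lowest, and the 2 differed 1.40-fold.

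ENSOARG00000012664 was the second steadiest, with an SD of 0.12. Its values were 326.4, 349.7, 332.2 and 354.6 CPM in C, 271.9, 327.3, 327.9 and 309.2 CPM in UD, 342.6, 311.3, 362.0 and 325.3 CPM in UDR, and 354.0, 311.7, 384.8 and 315.8 CPM in IA. UD 1 was the lowest library and IA 3 the highest, and again the groups overlapped. These 2 genes were also among the 200 steadiest under both other scalings and both other measures of spread that were tried.

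The gene with the highest read share, ENSOARG00000017870, sat lower in the controls than in most other libraries. It was at 654.2, 691.9, 665.4 and 749.7 CPM in C and at 742.3, 920.6, 901.7 and 867.1 CPM in UD. In UDR it was at 936.9, 892.2, 838.4 and 679.5 CPM, and in IA at 839.9, 941.2, 930.9 and 744.8 CPM. On these library totals UD 1, UDR 4 and IA 4 lay below the highest control, C 4, so each treated group overlapped the controls. Scaling by trimmed means of M values (TMM) gave factors of 0.882 for UD 1 and 1.03 for C 4. On TMM sizes UD 1 lay above C 4, so UD lay wholly above the controls, while UDR 4 and IA 4 stayed below C 4. The gene's log2 fold change against C on TMM sizes was 0.48 in UD (SE 0.22), 0.43 in UDR (SE 0.22) and 0.47 in IA (SE 0.22). With adjusted p of 0.89, 0.795 and 0.9998 by edgeR's quasi-likelihood test, it passed in none of them. The gene with the lowest read share, ENSOARG00000009075, was at 12.7 to 17.9 CPM in C, 12.1 to 16.2 in UD, 10.2 to 16.1 in UDR and 12.3 to 13.5 in IA, and its SD of 0.20 compares with 0.098 from counting alone.

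**Figure D2:**
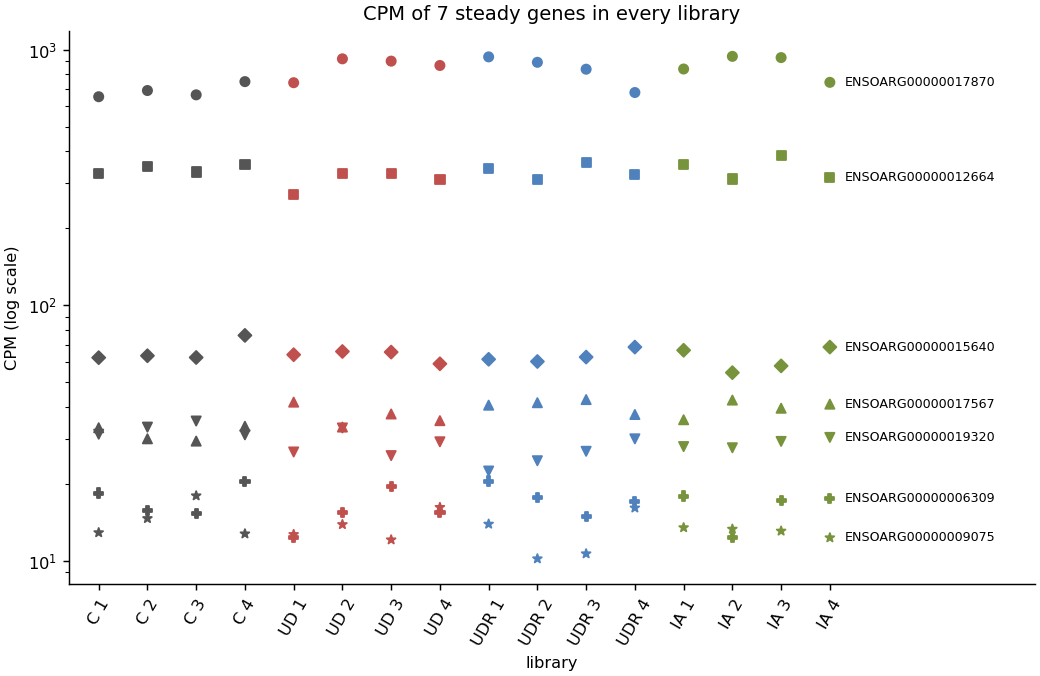
CPM on a log axis of 7 of the steady genes in each of the 16 libraries, coloured by group (grey C, red UD, blue UDR, green IA), with 1 marker shape per gene. The read shares of the genes differ widely, while each gene stays within 1.76-fold over the libraries, and the 2 lowest genes cross each other.

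The libraries did not contribute equally to what spread the members had. On library totals, the scale on which they were chosen, the median member lay 0.16 below its own mean in UD 1, 0.12 below in UD 4, 0.08 below in IA 2 and 0.07 below in UDR 1, on the log2 scale. It lay 0.11 above in UDR 4 and 0.09 above in C 3. UD 1 was the lowest of the 16 libraries for 46 members, IA 2 for 40 and UDR 1 for 29, while UDR 4 and IA 4 were the lowest for 0. UDR 3 was the highest library for 35 members and C 3 for 24. IA 1 and IA 4 stayed closest to the members' means, with a median absolute deviation of 0.085 and 0.086, and UDR 3, IA 2 and UD 1 lay farthest, at 0.18 each.

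The 200 genes together took a nearly fixed part of each library. Control libraries gave them 1.82% ± 0.0270 of all counts (SD, n = 4), and the UD libraries 1.73% ± 0.121. The UDR libraries gave them 1.82% ± 0.0611 and the IA libraries 1.81% ± 0.0584. The lowest share was that of UD 1, at 1.60%, and the highest that of UDR 4, at 1.91%. The 4 UD libraries, at 1.60%, 1.87%, 1.79% and 1.67%, spread most, and their range covered the controls, at 1.79%, 1.83%, 1.85% and 1.80%. Within groups the median SD of log2(CPM+1) of a member was 0.14 for C, 0.17 for UD, 0.20 for UDR and 0.17 for IA, where the eligible IDs had 0.29, 0.42, 0.41 and 0.33. Members and eligible IDs alike varied least among the control animals, and the members had the largest median in UDR.

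Part of the members' spread was a shift that moved them together. The mean shift of each library made up 14.5% of their total variance, and the median correlation between 2 members over the 16 libraries was 0.16, which is a description over libraries of different depth and composition. Among the eligible IDs not taken the same values were 6.23% and 0.13. Using the summed counts of the 200 genes as the library size removes such a shift by construction, and left the members a median SD of 0.17. The first principal component of the members held 24.5% of their variance, with scores of -2.64 in UD 1, -2.13 in IA 2 and -1.98 in UD 4 and 1.52 in UDR 4. UD 1, IA 2 and UD 4 also lay lowest in the median of all eligible IDs, at -0.33, -0.27 and -0.19, against -0.03 to 0.19 in the other libraries. The part of library composition in the members' spread was not tested.

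**Figure D3:**
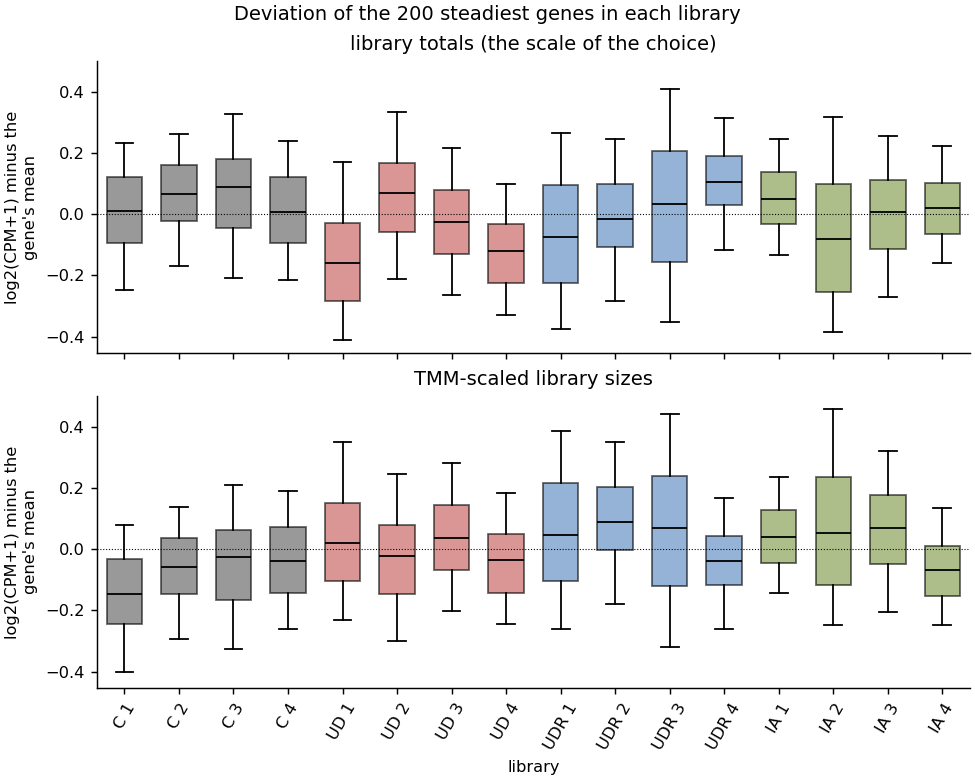
Box plots of log2(CPM+1) minus each gene's mean over the 16 libraries, for the 200 steady genes in every library (box, quartiles; line, median; whiskers, the 5th and 95th percentiles), with library totals above and TMM-scaled library sizes below. On library totals UD 1 and UD 4 sit lowest, at -0.16 and -0.12, while on TMM sizes 8 libraries have medians below 0, the 4 controls and UD 2, UD 4, UDR 4 and IA 4.

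The share of this spread that lay between the groups was near that of the other eligible IDs. With 4 libraries per group, some share lies between groups even where they do not differ. For the median member, 18.6% of the variance of log2(CPM+1) lay between the 4 groups, against 19.0% for the eligible IDs that were not taken. A control was the lowest of the 16 libraries for 19 members, a UD library for 75, a UDR library for 56 and an IA library for 50. A control was the highest for 51 members, a UD library for 31, a UDR library for 74 and an IA library for 44. In 7 of the 200 genes (3.5%) more than 50% of the variance lay between groups, against 80 of the 5831 not taken (1.37%), and more than 40% did in 13 (6.5%), against 7.27%. These shares were not tested, and the highest share, 69.2%, was that of ENSOARG00000017567.

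That gene was lower in the controls than in UDR and IA. It was at 33.1, 29.98, 29.4 and 33.6 CPM in C, 41.7, 33.3, 37.5 and 35.3 CPM in UD, 40.6, 41.5, 42.7 and 37.3 CPM in UDR, and 35.6, 42.5, 39.5 and 41.0 CPM in IA. All UDR and all IA libraries lay above all controls, and UD overlapped them through UD 2. The log2 fold change was 0.51 in UDR (SE 0.17), 0.47 in IA (SE 0.17) and 0.41 in UD (SE 0.17) against C, on TMM-scaled counts. It was the member with the smallest p in the test of any difference among groups, at an unadjusted p of 0.0419, and its adjusted p there was 0.762 by edgeR. Against C the adjusted p by edgeR was 0.735 in UDR, 0.89 in UD and 0.9998 in IA, so it passed in none. The 3 comparisons share the same 4 controls.

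ENSOARG00000019320 was lower in UDR than in C and had the smallest p among members lower than in C. Its values were 31.3, 33.3, 35.2 and 31.1 CPM in C and 22.4, 24.6, 26.8 and 29.97 CPM in UDR, so that on library totals every UDR library lay below every control. It was at 26.6, 33.1, 25.8 and 29.2 CPM in UD and at 27.9, 27.7, 29.3 and 30.4 CPM in IA, and of these only UD 2 fell within the controls. On TMM-scaled counts the log2 fold change of UDR with C was -0.20 (SE 0.14; edgeR adjusted p = 0.833), with a 95% interval of -0.50 to 0.10. It was -0.02 in UD (SE 0.14) and -0.04 in IA (SE 0.14). With the summed members as library size the log2 fold change of UDR with C was -0.34, and on library totals -0.33. With a lane term over C, UD and UDR it was -0.12.

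In edgeR's quasi-likelihood test over 14148 genes, with counts scaled by trimmed means of M values (TMM), no member passed an adjusted p of 0.05 in any comparison, and neither did any other gene (0% of genes tested). All 200 members entered the test, since each has at least 10 CPM in every library. Draining urine without replacement (UD with C) gave an unadjusted p under 0.05 in 3 of 200 members, 3 higher and 0 lower, against 5.46% of all genes. Draining with replacement (UDR with C) gave it in 9 members, 9 higher and 0 lower, against 6.1%, and infusion (IA with C) in 5, 5 higher and 0 lower, against 4.4%. Replacement against no replacement (UDR with UD) gave 0 members, against 8.88%, and the test of any difference among the 4 groups gave 1, against 6.42%. Because the members were chosen for a small spread, their shares of 1.5%, 4.5%, 2.5%, 0% and 0.5% are set beside the background without being read as evidence of stability. Limma-voom with sample quality weights called 16 members in UD with C (8% of members, against 23.8% of all genes), 10 in UDR with UD (5%, against 29.8%) and 7 for any difference (3.5%, against 27.8%). It called 0 members and 0 genes in UDR or IA with C. DESeq2 called 0 members in all 5 tests, against 0.104% of genes in UD with C, 0.221% in UDR with C, 0.0357% in IA with C, 1.11% in UDR with UD and 0.943% for any difference. At an unadjusted p under 0.05, DESeq2 had 8, 19, 10, 4 and 8 members in the same order (4%, 9.5%, 5%, 2% and 4%), against 7.97%, 8.5%, 7.07%, 11.4% and 10.4% of genes. Limma-voom had 36, 19, 29, 23 and 29 (18%, 9.5%, 14.5%, 11.5% and 14.5%), against 38.8%, 13.2%, 7.99%, 45.1% and 45.6%.

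The fitted differences were small, within bounds that the choice set. The largest was the 0.51 of ENSOARG00000017567 in UDR, or 1.43-fold, and the largest in the lower direction was -0.29 in UDR with UD, or 1.22-fold. The median absolute log2 fold change of members was 0.08 in UD with C, 0.13 in UDR with C, 0.09 in IA with C and 0.10 in UDR with UD, against 0.27, 0.32, 0.25 and 0.37 in the other 13948 genes. The median SE was 0.17 for members and 0.42 for the others, so a typical member's 95% interval reached 1.29-fold to either side. The interval lay within 2-fold of no change for 200 of 200 members in each of the 4 comparisons. Among the other genes it did for 39.7%, 35.5%, 40.7% and 33.2%, in the same order. Since highest and lowest library lay within 2-fold in every member, the choice left little room for another count. The interval lay within 1.5-fold for 169 members in UD with C (84.5%, against 7.57% of the other genes) and 154 in UDR with C (77%, against 6.43%). It did so for 161 in IA with C (80.5%, against 8.15%) and 184 in UDR with UD (92%, against 5.43%). The median biological coefficient of variation that edgeR fitted was 0.226 for members and 0.431 for other genes. These values and the SE rest on dispersions that edgeR draws towards those of other genes, so they are not the members' own spread. The lowest fitted value of a member was 0.195. On library totals ENSOARG00000015640 had an SD of 5.06 CPM at a mean of 63.7 CPM.

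Which group the members were higher in depended on the scaling. On TMM sizes the median log2 fold change of the 200 against C was 0.06 in UD (143 higher, 57 lower), 0.12 in UDR (162 and 38) and 0.09 in IA (165 and 35). Without C 1 it was 0.03 in UD (118 and 82), 0.09 in UDR and 0.05 in IA (140 and 60). Without UD 3 it was 0.04 in UD, and without IA 4 it was 0.13 in IA. On library totals it was -0.11 in UD (35 higher, 165 lower), -0.02 in UDR (86 and 114) and -0.05 in IA (67 and 133). The same change of scale moved the median of all 14148 genes from -0.01 to -0.18 in UD, from 0.02 to -0.12 in UDR and from -0.02 to -0.15 in IA. Relative to the median of all genes, the members lay 0.08, 0.10 and 0.10 higher on TMM sizes, and 0.07, 0.10 and 0.10 higher on library totals. That offset rested in part on 1 control: without C 1 it was 0.03, 0.03 and 0.05 on TMM sizes, and in UD without C 4 it was 0.05. Relative to the eligible IDs not taken it was 0.13, 0.05 and 0.11 on TMM sizes with all libraries. UDR with UD kept its sign, at 0.06 on TMM sizes (132 higher, 68 lower) and 0.09 on library totals (145 and 55), and was 0.04 on TMM sizes without UDR 2.

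TMM factors, which multiply the library totals, were highest on average in the controls, though that of UDR 4, at 1.11, lay above C 2, C 3 and C 4. The TMM factors averaged 1.08 ± 0.0341 for C, 0.962 ± 0.0763 for UD, 0.984 ± 0.0868 for UDR and 0.984 ± 0.0679 for IA (SD, n = 4). Factors from the summed members were, in that order, 1.01 ± 0.0151, 0.965 ± 0.0676, 1.02 ± 0.0341 and 1.01 ± 0.0326. The 2 kinds of factor differed most in C 1, where the members' factor was lower by 0.16 in log2, and in UDR 2, where it was higher by 0.11. In C the members' factor was the lower of the 2 in all 4 libraries, and it was also the lower in UD 2, UD 4, UDR 4 and IA 4.

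Counts of members whose groups do not overlap also depended on the scale, and turned from above to below in UD with C. On TMM sizes, UD lay wholly above C in 6 members and below in 0, against 2.9% of all genes in either direction. UDR lay above C in 14 members and below in 1, against 2.87%, and IA above C in 11 and below in 0, against 1.86%. UDR lay above UD in 3 and below in 0, against 2.47%. On library totals, the counts were 0 above and 6 below for UD with C (3.94% of all genes), 2 and 1 for UDR with C (2.7%), 3 and 4 for IA with C (2.64%), and 5 and 0 for UDR with UD (2.59%). The members' share of 7.5% in UDR with C on TMM sizes was 1.5% on library totals.

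**Figure D4:**
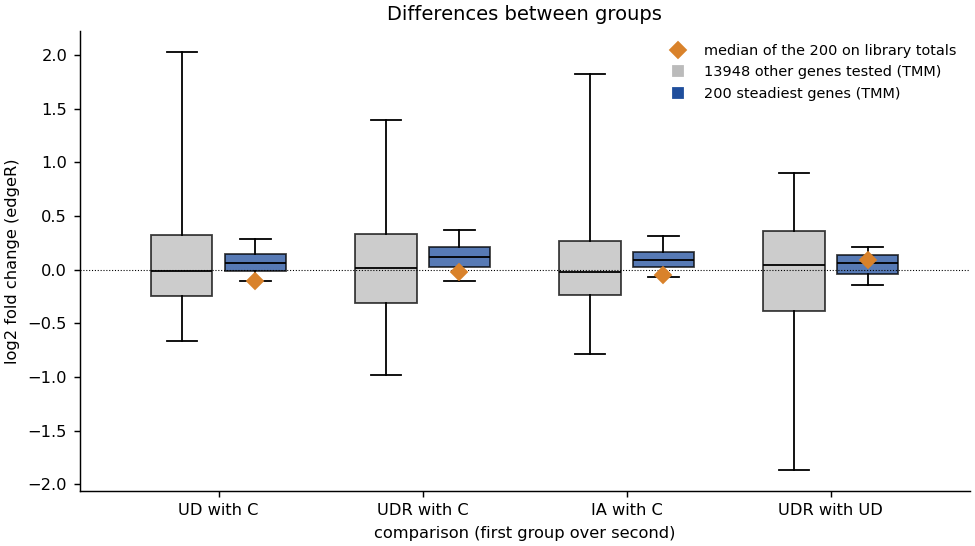
Box plots of the edgeR log2 fold change in 4 comparisons, for the 200 steady genes (blue) and the 13948 other genes tested (grey), on TMM-scaled counts (box, quartiles; whiskers, the 5th and 95th percentiles); orange diamonds mark the median of the 200 on library totals. The steady genes form narrow boxes, and against C their medians of 0.06 to 0.12 on TMM sizes become -0.11 to -0.02 on library totals.

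The sequencing lane overlapped with the groups. Lane 1 held C, UD 1 and UD 2, lane 2 held UD 3, UD 4 and UDR, and lane 3 held IA and the repeat runs of UDR 2 and UDR 3. Within lane 1, UD 1 and UD 2 lay a median of 0.05 above C over the members, beside 0.06 for all 4 UD libraries. Of the members and of all genes, 0 were called there. Within lane 2, UDR lay 0.04 above UD 3 and UD 4, beside 0.06. UDR and C shared no lane, and neither did IA and C, so these comparisons could be fitted with a lane term only through the groups in 2 lanes. With a lane term over C, UD and UDR, which UD links, the members' median was 0.10 in UDR with C (139 higher, 61 lower), beside 0.12. A lane term over all 16 libraries took UDR 2 and UDR 3 from their lane 3 runs only. Lanes 2 and 3 were thus linked between different animals, UDR 1 and UDR 4 against UDR 2 and UDR 3. Lane and animal cannot be told apart there. Between the 2 runs of the same library the members' median log2 ratio was 0.0008 in UDR 2 and 0.007 in UDR 3. In the fit over all 16 libraries the members' median was 0.07 in UDR with C (137 and 63) and 0.03 in IA with C (111 and 89). These fits called 0 members. Over all genes they called 0 in each comparison of 2 groups, and 3 of 14119 for any difference over all 16 libraries. At an unadjusted p under 0.05 by edgeR, the fit over C, UD and UDR had 0 members in UDR with C, against 3.74% of all genes. The fit over all 16 libraries had 0 there, against 0.907%, and 0 in IA with C, against 2.93%. Without the lane term these were 9 members, against 6.1%, and 5, against 4.4%. In UD with C each lane fit had 1 member, against 9.30% and 8.18% of all genes.

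Steadiness was also measured in libraries that the choice had not used. When the rule was applied to 15 libraries, the 200 genes it took lay closer to their mean in the left-out library than the other eligible IDs did, in 16 of 16 libraries. The median absolute distance was 0.16 for the genes taken and 0.28 for the others, as the median over the libraries. It was smallest in IA 4, at 0.099 against 0.171, and largest in UDR 3, at 0.333 against 0.416. In all, 13 of 3200 left-out values differed more than 2-fold from the mean of the other libraries (0.406%), against 6.71% among the other eligible IDs, and 9 of the 13 were in UDR 3. In 12 of the 16 libraries there were 0 such values.

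**Figure D5:**
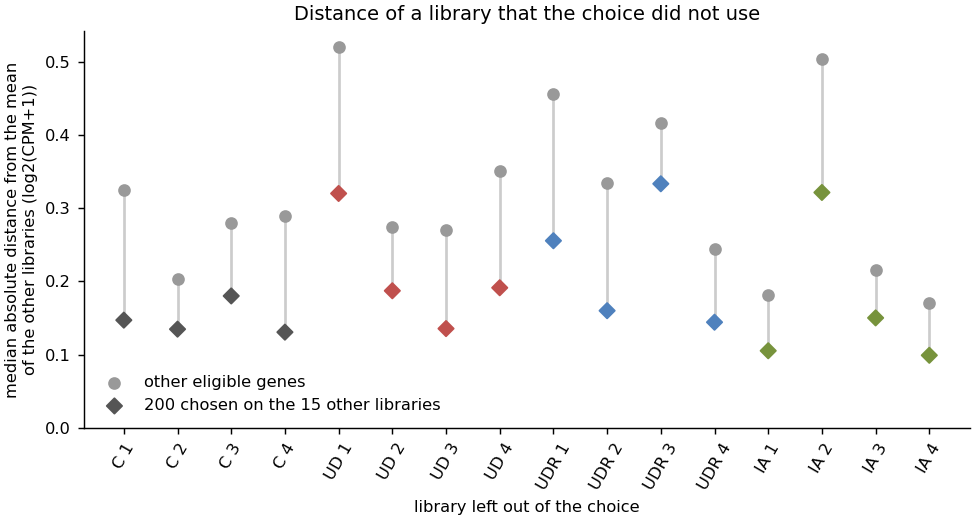
For each library, the median absolute distance of log2(CPM+1) from the mean of the 15 other libraries, for the 200 genes chosen on those 15 (diamonds, coloured by group) and for the other eligible genes (grey circles). The diamond is below the circle in 16 of 16 libraries, with the smallest relative gap in UDR 3, at 0.333 against 0.416.

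Leaving out a whole group gave the same order. Genes chosen without UD had a median SD of 0.27 within the 4 UD libraries, against 0.43 for the other eligible IDs, and those chosen without UDR had 0.30 within UDR, against 0.44. Without IA the values were 0.22 and 0.36, and without C 0.17 and 0.30. The group mean of a left-out group lay more than 1.5-fold from that of the others in 0 of 200 genes for C, UD and IA and in 4 for UDR, against 5.85%, 3.74%, 5.42% and 10.7% of the other eligible IDs. When only the 4 controls were used to choose, the 200 genes had a median SD of 0.34 in the 12 treated libraries, against 0.47.

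The membership itself was less stable than the measure. Without 1 library, 139 to 188 of the 200 genes were taken again, with the fewest when UDR 3 was left out and 147 when UD 1 or IA 2 was. Of the members, 106 were taken in all 16 such choices, and 99 of these ranked in the upper 100. Without UDR the set shared 107 genes with the full one, without UD 113, without IA 133 and without C, where no upper limit applied, 139. Chosen on the 4 controls alone, it shared 35. On TMM-scaled CPM it shared 119 and on RLE-scaled CPM 109.

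A smaller core was taken without any 1 library and under 2 other scalings and 2 other measures of spread. Of the 106 genes taken in all 16 choices, 68 were also taken on TMM and on RLE sizes, and 36 of those also by the median absolute deviation and by the mean SD within groups. The 36 had a median SD of 0.16 and mean CPM of 17.4 to 331.7. Both ENSOARG00000015640 and ENSOARG00000012664 were among them. ENSOARG00000017567 and ENSOARG00000019320 were taken in all 16 choices as well, but both were lost by the median absolute deviation, and the former also on TMM and on RLE sizes. ENSOARG00000017870, the highest in read share, was taken in 14 of the 16 and was lost on TMM and on RLE sizes. ENSOARG00000006309, at the edge of the set, was taken in 5 of the 16.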

How the data were processed

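The authors deposited whole-number counts of reads per Ensembl sheep gene ID for 18 columns, each a library and a sequencer lane. Polyadenylated RNA of amnion was sequenced, per the labels' protocols. FastQC 0.11.3, HTSeq 0.6.1 and DESeq2 are named in the submitters' processing notes; for the strand setting, aligner, build and annotation the entry is "not given in the sources used here", so overlapping, antisense and near-identical genes are uncertain. The 2 runs of UDR 2 and of UDR 3 were summed.

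Tests used edgeR 4.0.16 in R 4.3.3 (filterByExpr, TMM, robust quasi-likelihood F test, group as the only term, 16 libraries), with Benjamini-Hochberg adjustment over 14148 genes; they were tested on simulated data. Alternatives used limma 3.58.1 and DESeq2 1.42.0. The 200 genes and the comparisons were chosen with earlier results of these data known. Symbol lists prepared for pathways and cell types could not be applied, as 0 IDs had a symbol. Genes named are the 2 steadiest, the last taken and the next, the highest and lowest in mean CPM, and those with the smallest p of any difference and, higher and lower, against C.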

Additional observations from a re-analysis of the deposited data

Results flagged for a closer look

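Among 44 sets of 4 libraries examined (the summed share, the median and absolute deviation of the members, the distance of a left-out library, and the CPM of the 7 named members, in each group), 3 held a value far from the other 3, where chance gives about 2.2. C 3 had a median absolute deviation of the members of 0.134, against 0.104 to 0.108 in the other controls. ENSOARG00000015640, the steadiest gene, was at 76.1 CPM in C 4, against 62.3 to 63.4 CPM in the other controls. ENSOARG00000006309 was at 12.3 CPM in IA 2, against 17.3 to 17.9 CPM in the other IA libraries. Over all members and groups, 42 of 800 sets of 4 values (5.25%) held such a value, where about 1 in 20 arises by chance.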

How the results depend on the processing

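No member passed an adjusted p of 0.05 by edgeR in any comparison under any alternative, including each library left out in turn (0 to 0 members) and UD 1, UD 4, IA 2 and UDR 3 left out together. Limma-voom with sample quality weights called 16 members in UD with C (8%, where it called 23.8% of all genes), 10 in UDR with UD (5%, where it called 29.8%) and 7 for any difference (3.5%, where it called 27.8%). At an unadjusted p under 0.05, the 3, 9, 5, 0 and 1 members became 0, 2, 0, 0 and 0 with the summed members as library size (5.63%, 6.45%, 3.70%, 8.69% and 5.90% of all genes), and 1, 1, 1, 1 and 0 on library totals (5.84%, 5.90%, 3.48%, 8.02% and 5.66%). With 1 library left out they ranged from 0 to 4 in UD with C. The 0 was without C 2 (3.60% of all genes) and without C 3 (2.78%). The 4 was without C 1 (7.53%), without C 4 (4.24%) and without IA 2 (8.03%). The share of all genes there ran from 1.90% (without UD 1, 2 members) to 9.65% (without UD 3, 1 member). In UDR with C the members ranged from 2 (without UDR 2, 5.94% of all genes) to 14 (without UDR 4, 10.7%). In IA with C they ranged from 0 (without IA 2, 1.10% of all genes) to 7 (without IA 4, 5.04%). In UDR with UD they ranged from 0 to 4 (without UD 3, 16.9% of all genes). For any difference they ranged from 0 to 4 (without UDR 4, 8.27%). The members' median log2 fold change then ranged from 0.03 to 0.08 in UD with C, from 0.09 to 0.15 in UDR with C, from 0.05 to 0.13 in IA with C and from 0.04 to 0.09 in UDR with UD. The replicate numbers in the titles do not state a shared animal or day, and those of IA follow accession order (S1 to S4 in the titles). Of 24 same-numbered pairs of libraries, 10 had a correlation of deviations over 0.1, and the correlations ran from -0.56 to 0.64. For 8 of 16 libraries the closest library of another group had the same number. With the number as a replicate block, 0, 7, 2, 0 and 1 members reached an unadjusted p under 0.05 by edgeR (4.56%, 5.34%, 2.17%, 7.46% and 4.24% of all genes). After adjustment 0 passed.

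Of the 200 genes, 119 were taken again on TMM-scaled CPM, 109 on RLE-scaled CPM, 70 by the median absolute deviation, 113 without UD, 107 without UDR, 133 without IA, 80 without UD 1, UD 4, IA 2 and UDR 3 together and 35 on the controls alone, the last 2 chosen after the data were seen, as were the lane terms and library totals in the test. Leaving out 1 library kept 139 to 188. The distance of a left-out library was 0.15 on TMM sizes, 0.15 on RLE sizes and 0.16 with a pseudocount of 0.1, smaller than in other eligible IDs in 16 of 16 libraries each time. Depth was no limit for most members; in those under 30 CPM counting error was 18.2% of the variance.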
